A study of Mus musculus with 39 samples.

Results

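Mouse pancreatic islets were compared between pregnancy day 3.5 (3 arrays) and pregnancy day 6.5 (4 arrays). These 7 arrays are chosen by their titles out of 39, and 19938 genes were tested on them, with 1 probe set standing for each gene symbol. All 7 arrays carry total islet RNA of wild-type C57bl6/J mice, and the labels name no treatment. The labels call the arrays of a group biological replicates and give neither the age of the mice nor how many animals an array holds. The p-values therefore set a difference against the spread between RNA samples, pooled over the 31 C57bl6/J arrays of the series. The whole series follows islets of C57bl6/J mice in 8 groups, non-pregnant, at pregnancy days 3.5, 6.5, 9.5, 12.5, 15.5 and 18.5 and at 10 days post partum, and adds islets of the Pdx1-creLate line and of control littermates. Non-pregnant mice (4 arrays) and pregnancy day 9.5 (4 arrays) are set beside the comparison where the direction of a gene over time is described. Values are on a log2 scale with 1 decimal, so a difference of 1 is a 2-fold difference, and levels are not compared between genes because each probe set responds in its own way.

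Islets of Langerhans are small clusters of hormone-secreting cells, mostly insulin-producing beta cells, that lie within an exocrine pancreas built of acinar cells. Acinar cells make very large amounts of mRNA for digestive enzymes, and isolated islets carry some of these cells or their RNA along. During pregnancy placental lactogens and prolactin act through the prolactin receptor and STAT5 on beta cells, which then divide more and make serotonin through tryptophan hydroxylase. The step from day 3.5 to day 6.5 spans the end of preimplantation development and the days after implantation, ahead of the proliferative peak of mid-pregnancy.

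The step was a modest one outside the digestive enzymes. Of 19938 genes 250 differed in limma's moderated test with a Benjamini-Hochberg adjusted p under 0.05, which is 1.25% of those tested. The 161 genes higher at day 6.5 make 0.808% and the 89 lower genes make 0.446%. Before adjustment 3553 of the 19938 genes had a p under 0.05 in limma. Of the called genes 36 differed at least 2-fold, 35 upward and 1 downward, and 32 of these 36 track the acinar enzyme level defined next. The groups did not overlap in any array for 234 of the 250. Over all genes, non-overlap with day 6.5 higher occurred in 5.37% and with day 6.5 lower in 4.36%. The count depended on single arrays: it was 79, 60 and 70 without replicate 1, 2 or 3 of day 3.5, 153 without replicate 1 of day 6.5 and 121 without replicate 4 of day 6.5. The split between higher and lower was 84 to 102 once arrays were centred on their medians and 75 to 16 with the spread (SD) of each array in the model.

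Exocrine genes were separated from the rest by their relation to the enzymes in the other 32 arrays of the series; the C57bl6/J arrays among these also enter the model that sets the spread and the covariate's slope. The acinar mean of an array is the mean log2 value of 22 measured genes of a list of digestive enzymes. This list, called the acinar enzymes here, also holds the trypsin inhibitor Spink1. A gene was said to track it where the correlation of its deviations from the group means with those of the acinar mean reached 0.7; for an enzyme of the list the mean of the other enzymes was used. This rule gave 37 tracking genes, 2 inverse genes and 19899 weakly related genes. Just inside the threshold lay Cela3a and Erp27, each with r = 0.73, and just outside lay Cckar with r = 0.66 and Gm5771 with r = 0.60. Of the 37 tracking genes 33 were called higher and 0 lower, while 128 weakly related genes were higher and 89 lower. Neither inverse gene was called. In bulk islets a change in the number of cells of a type and a change in the RNA made per cell cannot be told apart.

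The acinar mean was 5.35, 7.77 and 7.01 in replicates 1 to 3 of day 3.5. It was 9.43, 9.42, 9.75 and 9.36 in replicates 1 to 4 of day 6.5. The day 3.5 arrays were low and spread widely, 6.71 ± 1.24 (SD, n = 3), the day 6.5 arrays were high and close together, 9.49 ± 0.18 (SD, n = 4), and the groups did not overlap. Non-pregnant arrays lay between 7.40 and 9.38 and day 9.5 arrays between 6.13 and 9.22, so both neighbouring groups overlapped day 3.5. The highest non-pregnant array also lay above the lowest of day 6.5. The highest arrays of day 15.5 (9.70), day 18.5 (9.49), 10 days post partum (9.91) and Pdx1-creLate (10.10) reached day 6.5 too. Those of day 12.5 (9.04) and the control littermates (9.30) did not. The difference was 2.78 and 2.10 without replicate 1 of day 3.5. How much exocrine tissue came along with the islets of each sample was not measured, so islet isolation and pregnancy day cannot be told apart for this difference or for the enzymes and acinar cell genes below. A list of 19 other acinar cell genes averaged between 5.50 and 6.07 at day 3.5 and between 6.82 and 7.01 at day 6.5.

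**Figure D1:**
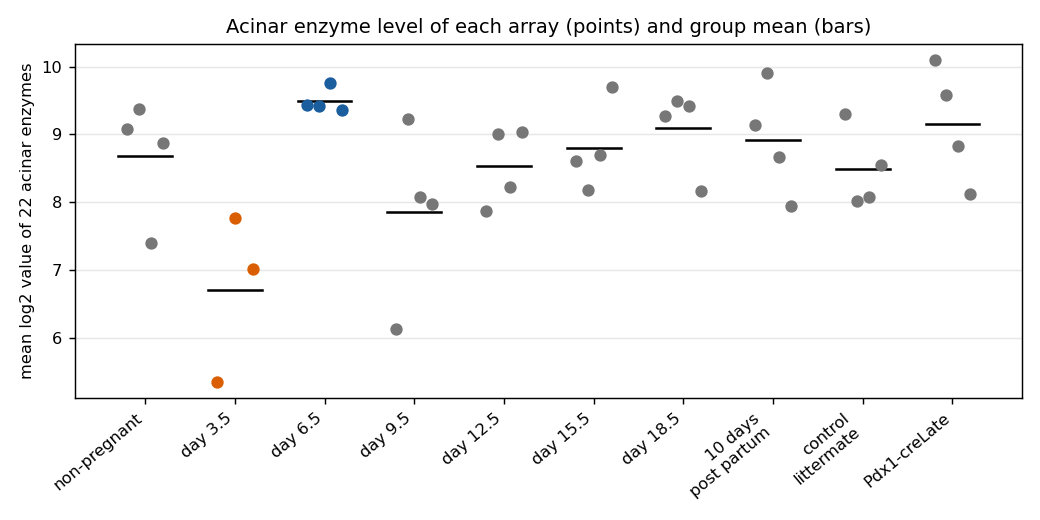
Mean log2 value of 22 acinar enzymes on each array (points), with the mean of each group (bar), for the 10 groups of the series; day 3.5 is orange and day 6.5 blue. The 4 arrays of day 6.5 sit between 9.36 and 9.75, and the 3 arrays of day 3.5 between 5.35 and 7.77.

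Digestive enzymes made the largest differences of the step. Of the 22 measured acinar enzymes 19 were called higher and 0 lower, with a median difference of 3.01, where the median over all 19938 genes was 0.00. The acinar mean is built from these genes and the count is a description of that choice. Cpb1, which encodes the pancreatic carboxypeptidase B, was at 4.0, 9.9 and 8.6 at day 3.5 and at 11.7, 11.6, 11.9 and 11.7 at day 6.5. Replicate 1 of day 3.5 was far below the others, and no day 3.5 array reached day 6.5. The difference was 18.7-fold, 4.22 ± 0.87 (SE), with limma's adjusted p = 0.0147.

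Cel, the bile salt-dependent lipase, was at 4.5, 9.0 and 7.8 at day 3.5 and at 10.9, 10.8, 11 and 10.7 at day 6.5, 13.5-fold higher (3.75 ± 0.77, SE; limma's adjusted p = 0.0133). Pnliprp1, a relative of pancreatic lipase, was at 4.2, 8.1 and 6.9 at day 3.5 and at 10.1, 10.0, 10.5 and 10.1 at day 6.5. It rose 13.7-fold (3.77 ± 0.79, SE; limma's adjusted p = 0.0153). The order of the day 3.5 arrays, replicate 1 lowest and replicate 2 highest, was the same in Cpb1, Cel and Pnliprp1. Cpa1 (carboxypeptidase A1) rose by 3.70, Ctrl (a chymotrypsin-like protease) by 3.65, Ctrb1 (chymotrypsinogen B) by 3.46, Cela2a (an elastase) by 3.35 and Rnase1 (pancreatic ribonuclease) by 3.25.

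Trypsinogens moved to a like extent. Try5 was at 5.4, 8.8 and 7.9 at day 3.5 and at 11.3, 11.5, 11.7 and 11.6 at day 6.5, a difference of 4.16 ± 0.77 (SE; limma's adjusted p = 0.0102). The trypsinogen 2210010C04Rik rose by 3.52. Trypsinogen genes are near-identical copies whose probe sets may share signal, so the share of each copy is uncertain. The 3 members of the list that were not called were Ctrc, Dnase1 and the trypsin inhibitor Spink1, with differences of 0.30, 0.02 and 0.42. They were named after their values were seen.

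The list of other acinar cell genes, which holds granule proteins and transcription factors among others, went the same way. Of its 19 genes 11 were called higher and 0 lower, where 0.808% and 0.446% of all genes were. The median difference was 0.62. Of the 19 genes 9 tracked the acinar mean. Gp2, the main membrane protein of zymogen granules, was at 4.3, 5.8 and 5.4 at day 3.5 and at 7.8, 7.6, 8.5 and 8.2 at day 6.5. All 4 day 6.5 arrays were above all 3 day 3.5 arrays, by 2.86 ± 0.55 (SE; limma's adjusted p = 0.0115). Zg16 and Sycn, a lectin and a syncollin of the same granules, rose by 2.92 and 2.55. Cckar, the acinar receptor for cholecystokinin, rose by 0.78, and Rbpjl, a subunit of the acinar transcription complex PTF1, by 0.43. Rbpjl was weakly related to the acinar mean (r = -0.03), and with that mean in the model it differed by 0.38 and was not called. The Rbpjl call was lost in 6 of the 7 fits without 1 array. Ptf1a, the complex's defining factor, read 4.6, 4.3 and 4.1 at day 3.5 and 4.5, 4.7, 4.4 and 4.4 at day 6.5; these ranges overlap, and its difference was 0.17 ± 0.11 (SE; limma's adjusted p = 0.41).

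Of the regenerating islet-derived (Reg) genes, a family of secreted lectins, 2 of 7 were called higher and 0 lower (0.808% and 0.446% of all genes). One of these, Reg1, is also counted among the other acinar cell genes above. Of the 7 genes 3 tracked the acinar mean, and the median r was 0.48. Reg1 was at 5.2, 7.0 and 6.0 at day 3.5 and at 9.4, 9.2, 9.3 and 9.2 at day 6.5, 9.24-fold higher (3.21 ± 0.65, SE; limma's adjusted p = 0.0133). Reg3d rose by 1.82, a call lost in 6 of the 7 fits without 1 array. Reg2 was at 3.6, 4.2 and 4.0 at day 3.5 and at 7.9, 5.8, 7.9 and 6.2 at day 6.5; these ranges do not overlap, the day 6.5 arrays fall far apart, and the difference of 3.02 ± 0.85 (SE) did not pass (limma's adjusted p = 0.0639).

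The calls of the exocrine genes leaned on the array with the least of them. Without replicate 1 of day 3.5 the median difference of the 33 called tracking genes was 2.35 in place of 2.92, all 33 still had an unadjusted p under 0.05, and 3 (Pnliprp2, Serpini2 and Try10) stayed called; without replicate 3 of day 3.5 20 did. With each array's acinar mean in the model as a covariate the median difference of the 33 was 0.00 and 0 were called in limma, with an unadjusted p under 0.05 for 4 of them; these genes were chosen for following that mean, and the enzymes among them form it, so this is a description. In 31 of the 33 day 3.5 lay farther from the non-pregnant mean than day 6.5 did, so these genes were low at day 3.5 more than they were high at day 6.5. Cpb1 averaged 10.85 in non-pregnant islets, 7.50 at day 3.5, 11.72 at day 6.5 and 9.75 at day 9.5.

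The 250 bases before the RefSeq start sites (GRCm38.p6) of Cel and Cela2a are shown because the acinar genes moved together and are known targets of PTF1, which reads an E-box and a TC-box. Capitals mark the letters CACCTG (E-box) and TTTCCC (TC-box) on either strand. Cel lies at chr2:28563404-28563653, minus strand, and Cela2a at chr4:141826006-141826255, minus strand.
Cel: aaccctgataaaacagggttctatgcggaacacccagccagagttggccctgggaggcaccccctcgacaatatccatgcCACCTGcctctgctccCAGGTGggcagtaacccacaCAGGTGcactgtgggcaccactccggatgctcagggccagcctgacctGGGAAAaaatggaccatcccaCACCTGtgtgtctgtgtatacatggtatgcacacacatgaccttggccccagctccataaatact
Cela2a: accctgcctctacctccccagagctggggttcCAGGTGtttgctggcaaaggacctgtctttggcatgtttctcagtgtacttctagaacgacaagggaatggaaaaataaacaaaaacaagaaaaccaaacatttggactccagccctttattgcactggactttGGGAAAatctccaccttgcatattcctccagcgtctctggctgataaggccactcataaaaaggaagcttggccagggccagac

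Searched over 300 bases, from 250 before to 50 after the start site, and on both strands, CACCTG was found in 11 of the 16 promoters matched by symbol among the 19 called enzymes (68.8%). It was found in 19.2% of the 15614 promoters matched for all tested genes. TTTCCC was found in 7 of the 16 (43.8%), against 25.7% of all. The Cel promoter holds 4 E-box matches and 1 TC-box match. A match describes these letters and is not a measured binding site.

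**Figure D2:**
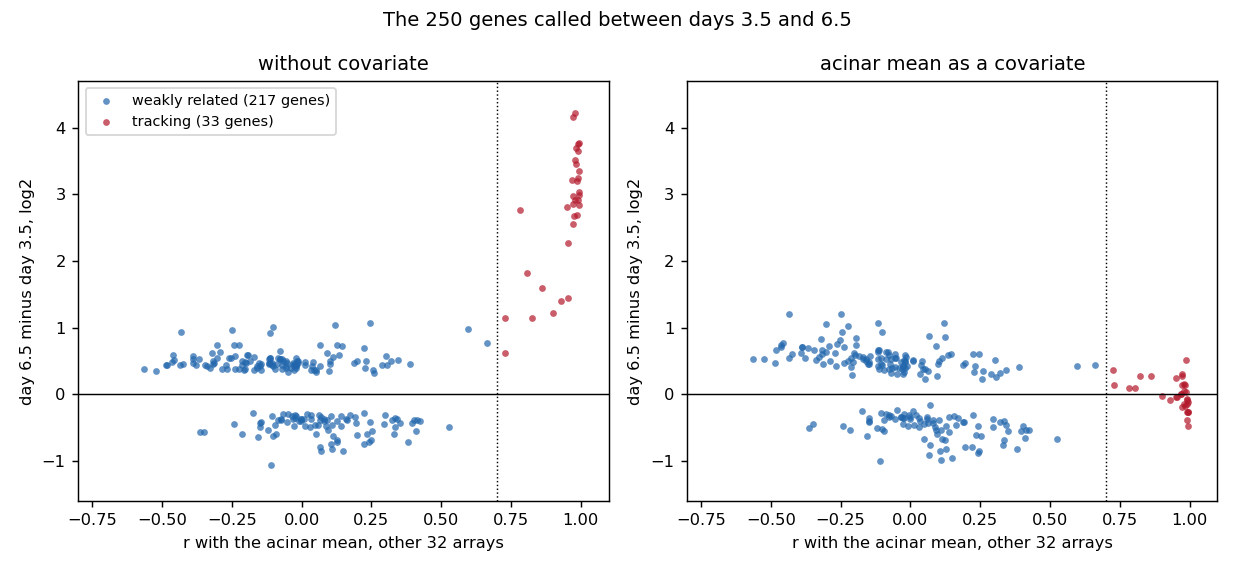
Each point is 1 of the 250 called genes; the horizontal axis is its correlation (r) with the acinar mean in the other 32 arrays and the vertical axis its log2 difference between day 6.5 and day 3.5, without (left) and with (right) the acinar mean in the model. The 33 tracking genes, right of the dotted line at 0.7, fall from a median of 2.92 to 0.00, while the 217 weakly related genes have medians of 0.52 (higher) and -0.46 (lower) on the right; the classes were chosen by their relation to that mean.

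Among weakly related genes the step was smaller. The 128 higher genes had a median difference of 0.47 and the 89 lower genes one of -0.43. At least 2-fold differences were found in 3 of the higher genes and 1 of the lower genes. The calls depended on the normalization, most of all the rises. Centring the arrays on their medians kept 51 of the 128 and 80 of the 89, and quantile normalization kept 27 and 39. Of the 33 tracking calls these settings kept 33 and 26. Once the acinar mean entered the model 8 of the 128 and 3 of the 89 stayed called, with medians of 0.52 and -0.46 over the same genes; a weak relation to that mean is what put them in this class, so these medians are a description. Day 3.5 was farther from the non-pregnant mean than day 6.5 in 83 of the 128 and in 53 of the 89. The same share over all genes is not given here, so these counts are not read as a trait of the called genes. The covariate's slope came from the spread within the groups of the 31 arrays fitted. No day 3.5 array reached the acinar mean of the lowest day 6.5 array, and the group means lay 2.78 apart. The adjusted differences therefore extend that slope across a gap that held no array of either group. In the covariate model 14 genes were called over all 19938 (0.0702%), 11 higher and 3 lower, and 2844 had an unadjusted p under 0.05.

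Part of the cell division genes rose. Of 56 measured genes of mitosis and the G2/M transition 18 were called higher and 0 lower, 55 were above zero, and the median difference was 0.34. For comparison 0.808% of all genes were called higher. The mean over the 56 genes was 5.53, 5.27 and 5.30 in replicates 1 to 3 of day 3.5 and between 5.65 and 5.79 at day 6.5. The groups did not overlap, and non-pregnant arrays, between 5.28 and 5.36, lay at the level of day 3.5. Replicate 1 of day 3.5, the array with the lowest acinar mean, had the highest mitosis mean of its group.

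Mki67, the proliferation marker that coats mitotic chromosomes, was at 6.1, 5.4 and 5.5 at day 3.5 and at 6.4, 6.2, 6.6 and 6.4 at day 6.5. Every day 6.5 array was above every day 3.5 array, by 0.73 ± 0.15 (SE; limma's adjusted p = 0.0133). It averaged 5.65 ± 0.24 (SD, n = 4) in non-pregnant islets, 5.67 ± 0.38 (SD, n = 3) at day 3.5, 6.40 ± 0.16 (SD, n = 4) at day 6.5 and 7.10 ± 0.22 (SD, n = 4) at day 9.5. Kif11, the kinesin motor that pushes spindle poles apart, was at 4.7, 4.6 and 4.5 at day 3.5 and at 5.4, 5.3, 5.6 and 5.0 at day 6.5. Its groups did not overlap either, and the difference was 0.72 ± 0.16 (SE; limma's adjusted p = 0.0186).

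Pbk, a mitotic kinase, was at 6.3, 5.5 and 5.7 at day 3.5 and at 6.6, 6.5, 6.7 and 6.5 at day 6.5, a rise of 0.74. Ccna2, cyclin A2, rose by 0.62 and Nuf2, a subunit of the kinetochore's Ndc80 complex, by 0.59. Plk1, the polo-like kinase of mitotic entry, was at 6.1, 5.9 and 6.1 at day 3.5 and at 6.5, 6.6, 6.4 and 6.5 at day 6.5. Its rise of 0.47 ± 0.10 (SE; limma's adjusted p = 0.0151) was the only call of the list that held with the acinar covariate, at 0.62 with an adjusted p of 0.0498. Top2a, the topoisomerase that untangles sister chromatids, read 6.7, 6.0 and 5.8 at day 3.5 and 6.8, 6.5, 7.1 and 6.8 at day 6.5; replicate 1 of day 3.5 overlapped day 6.5, and the difference of 0.63 ± 0.17 (SE) did not pass (limma's adjusted p = 0.0589).

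**Figure D3:**
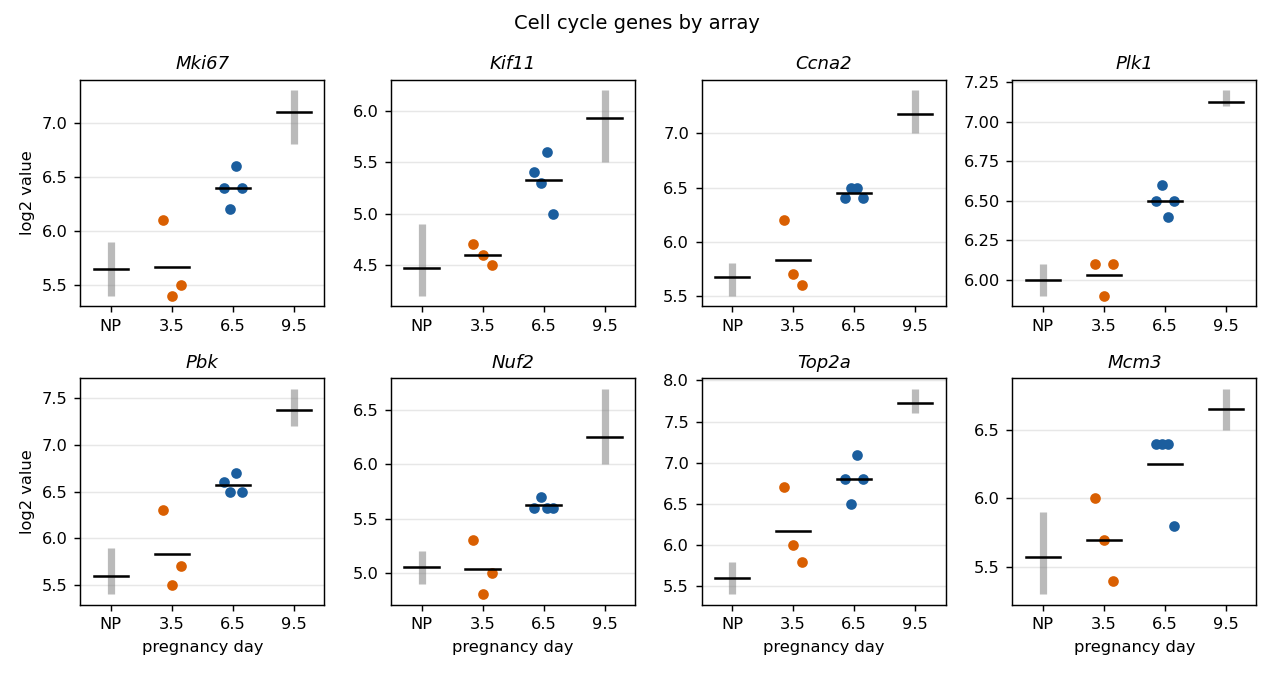
Log2 values of 8 cell cycle genes: points are the arrays of day 3.5 (orange) and day 6.5 (blue), grey spans run from the lowest to the highest of the 4 arrays of non-pregnant (NP) and day 9.5 islets, and black bars are group means. Mki67, Kif11, Ccna2, Plk1, Pbk and Nuf2 separate day 6.5 from day 3.5 without overlap; Top2a and Mcm3 do not.

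DNA replication genes were fewer to pass. Of 35 measured genes of replication and S phase 1 was called higher and 0 lower (0.808% and 0.446% of all genes). Still, 31 of the 35 were above zero. In limma 15 had an unadjusted p under 0.05, all of them upward, where 3553 of all 19938 genes had one in either direction. The median difference was 0.20. The called gene was Mcm3, a subunit of the replicative helicase, at 6.0, 5.7 and 5.4 at day 3.5 and at 6.4, 6.4, 6.4 and 5.8 at day 6.5. Replicate 4 of day 6.5 lay within the range of day 3.5, and the difference was 0.55 ± 0.14 (SE; limma's adjusted p = 0.0474), a call lost in 5 of the 7 fits without 1 array. Of 25 replication-dependent histone genes, a family of near-identical copies, H2ac4 alone was called, with a rise of 0.56 (0.808% of all genes were higher). It lost its call in 6 of the 7 fits. None of 19 regulators of G1 was called in limma, and 4 had an unadjusted p under 0.05; Ccnd2, the cyclin D2 that drives beta cells into the cycle, differed by 0.07 ± 0.08 (SE).

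The rise continued after day 6.5. Between day 6.5 and day 9.5 45 of the 56 mitosis genes and 21 of the 35 replication genes were called higher, where 10.5% of all genes were higher and 6.93% lower. Both steps share the day 6.5 arrays, and the change of step, the second difference minus the first, was called in 0 of the 56 mitosis genes in limma (9 at an unadjusted p under 0.05) and had a median of 0.09. Over all genes the change of step was called higher in 5.48% and lower in 3.93%. Mki67 rose by 0.73 and then by 0.70, with a change of step of -0.03 ± 0.24 (SE; limma's adjusted p = 0.943).

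The number of mitosis calls depended on single arrays. Without replicate 2 of day 3.5 limma called 0 of the 56, with 29 higher at an unadjusted p under 0.05 and a median difference of 0.28; without replicate 3 it called 1; without replicate 1 or replicate 3 of day 6.5 it called 9 and 8, while 12 or more were called without any other single array. Quantile normalization left 3 calls, centring on the medians 8, and the acinar covariate 1, with medians of 0.29, 0.29 and 0.43.

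The promoters of Mki67 and Kif11 are shown because genes of this group are known to be switched on late in the cycle through 2 short elements, the cell cycle genes homology region (CHR) and the CCAAT box. Capitals mark the letters TTTGAA (CHR) and CCAAT on either strand in the 250 bases before the RefSeq start site (GRCm38.p6). Mki67 lies at chr7:135716380-135716629, minus strand, and Kif11 at chr19:37376132-37376381, plus strand.
Mki67: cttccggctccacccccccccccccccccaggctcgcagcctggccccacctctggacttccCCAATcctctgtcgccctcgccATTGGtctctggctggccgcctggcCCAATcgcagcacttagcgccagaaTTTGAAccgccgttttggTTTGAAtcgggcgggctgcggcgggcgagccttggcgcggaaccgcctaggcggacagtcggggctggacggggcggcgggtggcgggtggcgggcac
Kif11: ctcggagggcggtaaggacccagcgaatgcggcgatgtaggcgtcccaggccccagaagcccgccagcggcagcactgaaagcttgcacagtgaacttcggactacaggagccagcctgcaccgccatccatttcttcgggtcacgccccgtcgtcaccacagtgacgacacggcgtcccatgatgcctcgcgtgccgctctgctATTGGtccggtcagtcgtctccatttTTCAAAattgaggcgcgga

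Over the same 300-base window TTTGAA was found in 12 of the 14 promoters matched among the 18 called mitosis genes (85.7%) and in 15.2% of the 15614 promoters of all tested genes. CCAAT was found in 11 of the 14 (78.6%) and in 38.2% of all. In the 16 promoters of called acinar enzymes the same letters were found in 18.8% each. The Mki67 promoter holds 2 CHR matches and 3 CCAAT matches, the nearest CHR match beginning 98 bases before the start site, and that of Kif11 begins 19 bases before it.

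Among genes of lactogen signalling Matn2 and Cldn8 rose. They were the 2 called higher of 26 measured genes of the pathway and its known islet targets (0.808% of all genes were higher), 0 were lower, and the median difference was 0.15; the list was drawn up with results of these arrays known. Matn2, an extracellular matrix protein of the matrilin family, was at 8.3, 7.5 and 8.1 at day 3.5 and at 9.0, 8.9, 9.1 and 9.0 at day 6.5. The day 6.5 arrays lay close together above all day 3.5 arrays, 2.05-fold higher, with a difference of 1.03 ± 0.13 (SE; limma's adjusted p = 0.000215). With the acinar covariate the difference was 1.07 and the adjusted p 0.0136. Matn2 rose again by 0.90 to day 9.5, and its change of step was -0.13 ± 0.22 (SE; limma's adjusted p = 0.732).

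Cldn8, a tight junction claudin, was at 5.0, 5.2 and 5.4 at day 3.5 and at 6.6, 6.0, 6.2 and 6.3 at day 6.5. The groups were apart in every array, by 1.07 ± 0.19 (SE; limma's adjusted p = 0.00827), and day 3.5 lay below the non-pregnant mean of 5.58. With the acinar covariate Cldn8 differed by 0.60 and was not called (adjusted p = 0.236). The following step to day 9.5 was larger, 2.80, and the change of step of 1.73 ± 0.31 (SE) passed in limma (adjusted p = 0.00165).

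Tph1, the tryptophan hydroxylase that limits serotonin production outside neurons, was at 4.2, 4.5 and 4.2 at day 3.5 and at 5.3, 5.0, 5.1 and 5.5 at day 6.5. All day 6.5 arrays were above all day 3.5 arrays, 1.90-fold, with a difference of 0.93 ± 0.24 (SE; limma's adjusted p = 0.0416). It averaged 4.45 ± 0.39 (SD, n = 4) in non-pregnant islets, 4.30 ± 0.17 (SD, n = 3) at day 3.5, 5.22 ± 0.22 (SD, n = 4) at day 6.5 and 8.57 ± 0.39 (SD, n = 4) at day 9.5. The change of step was 2.42 ± 0.39 (SE; limma's adjusted p = 0.000797). Its call was close to the threshold: it was lost without any 1 array other than replicate 2 of day 6.5, with adjusted p between 0.0526 and 0.134, and the covariate model gave 1.06 with an adjusted p of 0.136.

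The other serotonin genes did not pass. Tph1 was the 1 called higher among 18, and 0 were called lower (0.808% and 0.446% of all genes). Tph2, the neuronal tryptophan hydroxylase, read 5.8, 5.7 and 5.2 at day 3.5 and 6.3, 5.6, 5.8 and 5.9 at day 6.5; the ranges overlap and the difference was 0.33 ± 0.14 (SE; limma's adjusted p = 0.219). Among lactogen targets Lrrc55, a membrane protein with leucine-rich repeats, was at 5.1, 5.1 and 5.3 at day 3.5 and at 5.9, 5.4, 5.4 and 5.9 at day 6.5. These ranges do not overlap, but the difference of 0.48 ± 0.19 (SE) did not pass (limma's adjusted p = 0.172). Cish and Socs2, feedback inhibitors induced by STAT5, differed by 0.19 ± 0.21 (SE) and 0.13 ± 0.12 (SE), and Tnfrsf11b, osteoprotegerin, by 0.07 ± 0.17 (SE). Between day 6.5 and day 9.5 17 of the 26 genes of the list were called higher and 4 lower, where 10.5% and 6.93% of all genes were.

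**Figure D4:**
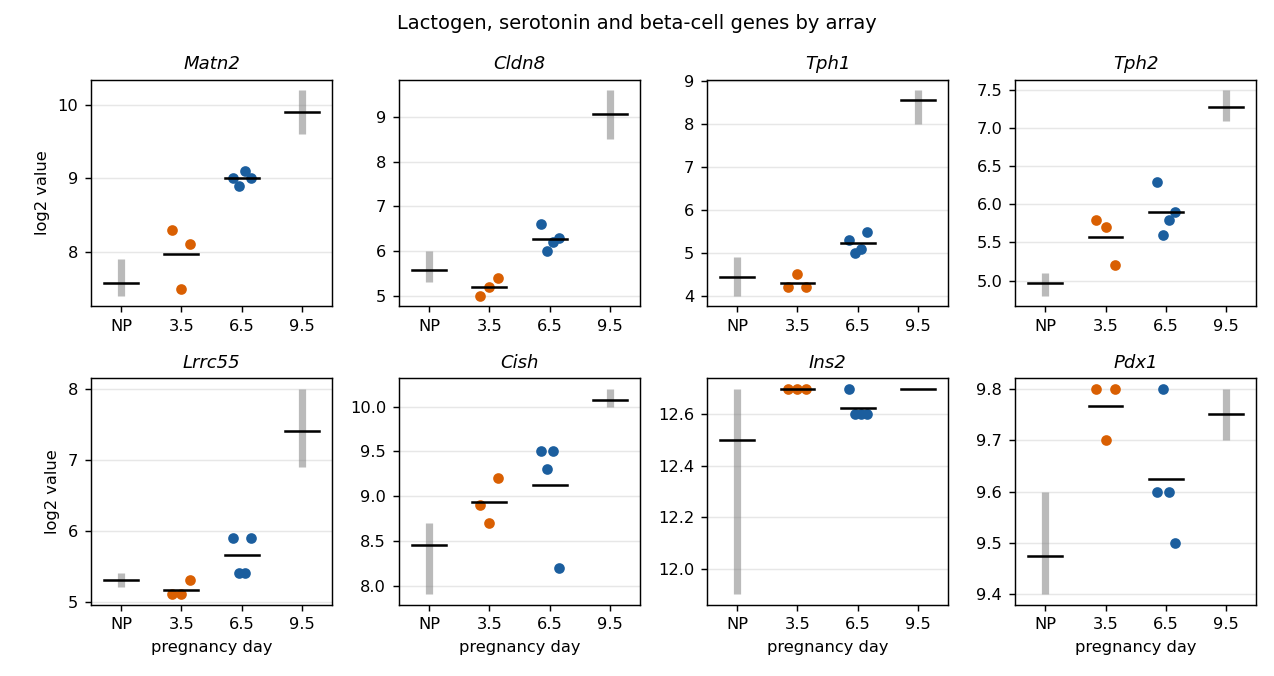
Log2 values of 8 lactogen, serotonin and beta-cell genes, drawn as points for day 3.5 (orange) and day 6.5 (blue), grey spans from lowest to highest of the 4 arrays of non-pregnant (NP) and day 9.5 islets, and black bars for group means. Matn2, Cldn8 and Tph1 are higher at day 6.5 in every array, with Tph1 reaching 8.57 at day 9.5; the arrays of Ins2 and Pdx1 overlap.

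Hormone and beta-cell identity genes showed no call. Of 27 insulin and secretory granule genes 0 were called in limma and 6 had an unadjusted p under 0.05, where 3553 of all 19938 genes had one. The median difference was -0.08, with 21 below zero. Ins2 was at 12.7 on all 3 arrays of day 3.5 and between 12.6 and 12.7 at day 6.5, a bright reading. Gcg (glucagon), at 13.9 on every day 6.5 array, differed by -0.10 ± 0.13 (SE), and Sst (somatostatin), between 13.5 and 13.8 in both groups, by -0.02 ± 0.12 (SE). These hormone probe sets were all bright, and differences of genes this bright may be understated. Their readings do not rank the amounts of the hormone mRNAs. Ppy (pancreatic polypeptide) differed by -0.48 ± 0.18 (SE; limma's adjusted p = 0.167). Among 21 beta-cell transcription factors 0 were called in limma and 5 had an unadjusted p under 0.05; Pdx1 differed by -0.14 ± 0.10 (SE) and Mafa by -0.09 ± 0.13 (SE). The maturity marker Ucn3 (urocortin 3) and the glucose transporter Slc2a2 differed by 0.07 ± 0.08 (SE) and -0.05 ± 0.07 (SE). Men1, the menin that restrains beta-cell growth, differed by -0.01 ± 0.08 (SE).

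Markers of other cells in an islet preparation were not called either. In limma 0 of 14 duct, 0 of 18 endothelial, 0 of 19 macrophage, 0 of 17 lymphocyte and 0 of 21 stellate, fibroblast and collagen genes passed. Those with an unadjusted p under 0.05 numbered 5, 1, 1, 1 and 7 in that order, where 3553 of all 19938 genes had one. The last group had 18 of 21 above zero and a median of 0.17. Their part in the differences of other genes was not tested. Genes of the endoplasmic reticulum's folding machinery, oxidative phosphorylation and cholesterol synthesis were also uncalled, 0 of 36, 0 of 35 and 0 of 20 in limma, with 5, 6 and 3 at an unadjusted p under 0.05. From day 6.5 to day 9.5 23, 21 and 12 of them were called higher (10.5% of all genes), and the change of step was called higher in 17, 10 and 5 (5.48% of all genes).

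Further genes rose whose known roles lie outside these groups. Krt77, an epidermal keratin, was at 4.6, 4.5 and 4.6 at day 3.5 and at 5.3, 5.2, 5.1 and 5.2 at day 6.5, a difference of 0.63 ± 0.09 (SE; limma's adjusted p = 0.00116). Its non-pregnant mean was 5.12, so day 3.5 was the group that stood apart. Crabp1, a retinoic acid binding protein, rose by 0.57, from 5.50 at day 3.5 to 6.075 at day 6.5, beside a non-pregnant mean of 5.95. Prp2, a proline-rich secreted protein, and the olfactory receptor gene Olfr767 rose by 0.93 and 0.96, and with the acinar covariate by 1.20 each. B230110C06Rik and Fam180a rose by 0.62 and 0.45, and by 0.83 and 0.57 with the covariate. Olfr875, Irx4 and Gm8098 were called with the covariate only, at 0.82, 0.82 and 0.77; without it they differed by 0.48, 0.49 and 0.42 and did not pass (limma's adjusted p = 0.0635, 0.0635 and 0.0715), and the groups of Gm8098 overlapped. Sbpl rose by 1.01 and 2410018L13Rik by 0.74; the first lost its call in 3 and the second in 5 of the 7 fits without 1 array.

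Genes that fell included a pair of cold-inducible RNA-binding proteins. Rbm3 was at 9.6, 10.0 and 9.3 at day 3.5 and at 9.2, 9.1, 8.9 and 8.9 at day 6.5. All day 6.5 arrays were below all day 3.5 arrays, by -0.61 ± 0.13 (SE; limma's adjusted p = 0.0181), and the gene rose again by 0.68 to day 9.5. Cirbp read 9.5, 9.6 and 9.2 at day 3.5 and 9.0, 9.2, 8.8 and 8.5 at day 6.5; the groups touch at 9.2, and the difference was -0.56 ± 0.12 (SE; limma's adjusted p = 0.0207). Both calls were lost without replicate 1 or replicate 2 of day 3.5 or replicate 4 of day 6.5, with adjusted p between 0.0536 and 0.173.

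Fkbp5, a co-chaperone of steroid receptors induced by glucocorticoids, fell by 0.59, and Btg2, an antiproliferative immediate-early gene, by 0.33. The Fkbp5 call was lost in all 7 fits without 1 array (adjusted p between 0.0515 and 0.181) and the Btg2 call in 5 of the 7 (up to 0.184). Pfn2, the actin-binding profilin 2, was at 6.5, 6.8 and 6.7 at day 3.5 and at 6.1, 6.3, 6.0 and 6.3 at day 6.5, a fall of 0.49. It was 1 of 3 genes called lower with the acinar covariate, at -0.69 with an adjusted p of 0.0136. Mdm1, a microtubule-binding protein of centrioles, read 9.2 on all 3 day 3.5 arrays and 8.6, 8.4, 8.3 and 8.6 at day 6.5, a difference of -0.72 ± 0.15 (SE; limma's adjusted p = 0.0147). Serpina1c, of the near-identical alpha-1-antitrypsin copies, fell by 0.85, and Gm5662 by 0.79; these calls were lost in 5 and 6 of the 7 fits, and that of Mdm1 in the 3 without a day 3.5 array. Rgs2, a regulator of G protein signalling, read 9.4, 8.9 and 8.2 against 8.7, 7.6, 7.9 and 7.5 and did not pass, at -0.91 ± 0.29 (SE; limma's adjusted p = 0.0976).

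The most compact set of falls came from the imprinted Dlk1-Dio3 domain on chromosome 12, a stretch of maternally expressed noncoding RNAs with a large microRNA cluster. The domain was picked out after its values were seen, so its counts are a description. Of 47 measured genes from Dlk1 to Dio3 12 were called lower and 1 higher, 25.5% lower where all genes gave 0.446%. The median difference was -0.43, and 41 genes were below zero. The genes called lower run from Rian and the small nucleolar RNA gene DQ267102 to Mir409. Of the 30 microRNA genes from Mir379 on 10 were called lower, 28 were below zero and the median was -0.50. The 10 microRNA genes before Mir379 had 0 called in limma, 2 at an unadjusted p under 0.05, 8 below zero and a median of -0.15; the stretches were divided at Mir379 after the values were seen and their difference was not tested. The 251 microRNA genes measured elsewhere in the genome had 1 called higher, 1 called lower and a median of 0.02.

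These probe sets lie on the microRNA genes and read the hairpin or its host transcript, not the mature strands. All 40 microRNA genes of the domain matched a RefSeq mature sequence by symbol. Shown are strands from 8 of the genes that fell, with bases 2 to 8 (the seed, which pairs with targets) in capitals, to show which of the falling genes share a seed.
miR-379-5p: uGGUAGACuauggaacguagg
miR-411-5p: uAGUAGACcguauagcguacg
miR-379-3p: uAUGUAACaugguccacuaacu
miR-411-3p: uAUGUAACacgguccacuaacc
miR-300-3p: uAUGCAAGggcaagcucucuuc
miR-381-3p: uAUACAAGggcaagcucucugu
miR-376a-3p: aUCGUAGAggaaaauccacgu
miR-376b-3p: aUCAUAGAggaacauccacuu
miR-539-5p: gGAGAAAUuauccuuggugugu
miR-541-5p: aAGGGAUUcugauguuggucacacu

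Among the strands shown miR-379-3p and miR-411-3p share the seed AUGUAAC. The others each have their own. Outside the strands shown, miR-376b-5p and miR-376c-5p share the seed UGGAUAU. Mir376b was called lower, and Mir376c differed by -0.48 and was not called. The pair miR-300-3p and miR-381-3p, alike over most of their length, differ within the seed, as do miR-376a-3p and miR-376b-3p.

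Mir376a was at 3.4, 3.2 and 3.2 at day 3.5 and at 2.5, 2.6, 2.6 and 2.5 at day 6.5. The groups were well apart, by -0.72 ± 0.11 (SE; limma's adjusted p = 0.00164), at a low level on the array. Mir539 was at 6.6, 6.5 and 6.7 at day 3.5 and at 5.8, 5.9, 5.9 and 5.8 at day 6.5, a difference of -0.75 ± 0.12 (SE; limma's adjusted p = 0.00164). The replicates of each group lay close together, and with the acinar covariate Mir539 and Mir376a were still called, at -0.79 and -0.82. Mir379 was at 4.0, 3.9 and 4.3 at day 3.5 and at 3.4, 3.3, 3.5 and 3.5 at day 6.5, lower by 0.64 ± 0.11 (SE; limma's adjusted p = 0.00683).

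Mir376b and Mir300 fell by 0.85 and 0.82, Mir541 by 0.72, Mir382 and Mir411 by 0.68 each, Mir409 by 0.63 and Mir381 by 0.62. Of the long noncoding RNAs of the domain Rian, which hosts small nucleolar RNAs, was at 7.5, 7.3 and 7.7 at day 3.5 and at 6.8, 7.0, 6.9 and 6.9 at day 6.5. It fell by 0.60 ± 0.15 (SE; limma's adjusted p = 0.0416), and DQ267102, a small nucleolar RNA gene within it, fell by 0.43; both calls were lost in 6 of the 7 fits without 1 array. Meg3, at the start of the same transcription unit, read 11.5, 11.6 and 11.7 against 11.2, 11.6, 11.6 and 11.5 and overlapped; its difference was -0.12 ± 0.14 (SE; limma's adjusted p = 0.669). The protein-coding genes at the ends, Dlk1 and Dio3, differed by 0.22 ± 0.11 (SE) and 0.20 ± 0.12 (SE). Mir666 was the 1 gene called higher, by 0.38, a call lost in 6 of the 7 fits.

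**Figure D5:**
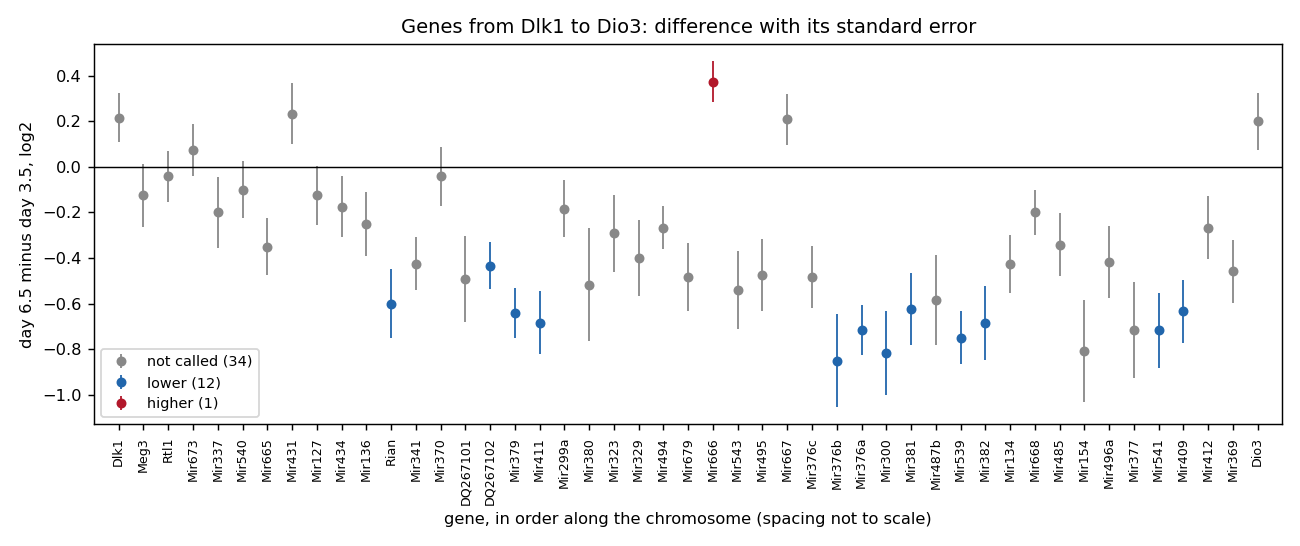
Log2 difference between day 6.5 and day 3.5 (points) with its standard error (bars) for 47 genes in their order from Dlk1 to Dio3, spacing not to scale; blue marks the 12 genes called lower, red the 1 called higher and grey the 34 not called. Called genes run from Rian to Mir409, and 41 of the 47 points lie below zero.

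As with the exocrine genes, day 3.5 stood farther from the non-pregnant level. The median of the 30 microRNA genes from Mir379 on was 0.45 above the non-pregnant mean at day 3.5 and -0.08 from it at day 6.5. The number called lower was 4, 5 and 4 without replicate 1, 2 or 3 of day 3.5, and 6 and 5 without replicate 1 or replicate 4 of day 6.5, with medians over the 47 genes between -0.45 and -0.35; Mir376a and Mir539 were called whichever single array was left out. Small nucleolar RNA genes outside this domain shared the direction: of 31 Snord genes 3 were called lower (0.446% of all genes), 29 were below zero and the median was -0.41, where the median of all genes was 0.00. Snord82 was at 4.6, 5.0 and 4.3 at day 3.5 and at 3.8, 4.1, 3.2 and 3.2 at day 6.5, a fall of 1.06 ± 0.26 (SE; limma's adjusted p = 0.0348), the only fall of at least 2-fold, and Snord73b fell by 0.75. Without 1 array the Snord82 call was lost in 5 of 7 fits (adjusted p up to 0.19) and the Snord73b call in 6 of 7 (up to 0.129). The arrays of day 3.5 also had, on average, a wider spread of values over all genes, with an SD between 1.87 and 1.89 where day 6.5 had 1.81 to 1.88. With that SD in the model 6 of the 47 domain genes were called lower and the median was -0.41; its part beyond that was not tested.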

How the data were processed

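Total RNA of 39 islet samples was labelled with biotin and hybridized to Affymetrix gene arrays. Per the submitters' processing notes the authors used RMA in Affymetrix Expression Console; version, genome build and the set of arrays normalized together are not given in the sources used here. The deposited log2 values carry 1 decimal, none is missing and array medians are near 6; the arrays give no depth in counts, and signal over background and the number of arrays limit precision. Probe sets were named from the platform's annotation: 21789 of 35556 had 1 gene symbol, 1621 several and 12146 none. Each of 19938 genes was represented by its probe set of highest overall mean. No filter on low values was applied. Promoter and microRNA sequences came from RefSeq tables (GRCm38.p6), matched by symbol.

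Groups were taken from the labels. limma 3.58.1 in R 4.3.3 (lmFit, eBayes) fitted the 8 group means of the 31 C57bl6/J arrays, which share 1 estimate of the spread, and tested each difference two-sided; p-values were adjusted over all genes by Benjamini-Hochberg with a threshold of 0.05. The covariate model added each array's acinar mean. The change of step is day 9.5 minus day 6.5, less day 6.5 minus day 3.5. The fitting was tested on simulated data. Python 3.11.15 with pandas 2.3.3, numpy 2.4.6 and matplotlib 3.10.9 made the tables and plots.

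The comparison, the 28 gene lists (619 of 713 entries measured; the others are not analysed here) and the tests were chosen with earlier results of these data known. Named genes were, among called genes without overlap between the groups, the 10 largest rises and falls among tracking and among weakly related genes; up to 4 called members of a list each way; the 10 largest each way called with the covariate; a fixed set of hormone, lactogen, serotonin, cell cycle and acinar genes whatever their result; and the 5 largest changes of step each way. The text leaves some out. Nuf2, Rbpjl, Fam180a, Rbm3, Cirbp, Fkbp5, Cela3a, Erp27 and, in the Dlk1-Dio3 domain, all genes outside this rule were added after their values were seen. The alternatives changed the values (quantile normalization, median centring of the arrays, all probe sets or their mean for each gene, no genes of the dimmest 25%), the model (array weights, trended and robust eBayes, all 39 arrays or only the groups compared, the replicate number as a block, the SD of each array or the mean of the other acinar cell genes as a covariate), the correlation threshold (0.6 and 0.8) and the arrays (each of the 7 left out in turn). No scan date or batch is named in the labels.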

Additional observations from a re-analysis of the deposited data

Results flagged for a closer look

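In 8 of 94 sets of 4 arrays examined, 1 for each measure and group, 1 array stood apart from the other 3 by Dixon's criterion, which chance meets in about 1 in 20; values with 1 decimal make it easier to meet. The acinar mean of replicate 3 of day 6.5 was 9.75, where the others lay between 9.36 and 9.43. Gm5771, a trypsinogen copy, was at 6.9 on the same array and between 6.1 and 6.2 on the others. Cish read 8.2 on replicate 4 of day 6.5 against 9.3 to 9.5, and Mcm3 read 5.8 there against 6.4 on the others. Tac1, the precursor of substance P, was at 5.1 on replicate 2 of day 6.5 and between 4.0 and 4.1 on the others. Ins2 (12.7 on replicate 1 against 12.6), Mir666 (7.3 on replicate 1 against 7.4) and Nuf2 (5.7 on replicate 2 against 5.6) were apart by the last decimal that the values carry.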

How the results depend on the processing

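The 250 calls became 106 under quantile normalization, 492 with array weights, 93 with only the groups compared in the model, 91 with the SD of each array and 14 with the acinar covariate, and lay between 60 and 244 with 1 array left out; the cause was not tested. The 14 calls with the acinar covariate became 60 without the dimmest 25% of genes, 6 under quantile normalization, 32 after centring, 116 with array weights, 90 with all 39 arrays, 8 with the mean of the other acinar cell genes as the covariate and 0 in limma with only the groups compared (1132 at an unadjusted p under 0.05), and lay between 0 (without replicate 1 of day 6.5, 2642 at an unadjusted p under 0.05) and 36 (without replicate 1 of day 3.5) with 1 array left out. The 1876 changes of step became 837 under quantile normalization, 147 with the SD of each array and 527 with the acinar covariate, and lay between 754 and 1638 with 1 array left out. The median of the acinar enzymes was 3.01, 0.0286 with the acinar covariate and between 2.39 and 3.50 with 1 array left out; that of the other acinar cell genes was 0.62, 0.0802 and between 0.55 and 0.75. The 18 mitosis calls became 3 under quantile normalization, 8 after centring, 3 with only the groups compared and 1 with the acinar covariate, and lay between 0 and 19 with 1 array left out. The 1 replication call became 3 without the dimmest genes, 2 with trend and robust, 4 with array weights and 0 in limma under quantile normalization, centring, only the groups compared, the replicate block, the array SD and the acinar covariate (12, 9, 18, 15, 17 and 13 at an unadjusted p under 0.05), and was 0 or 1 with 1 array left out. With the acinar covariate 2210010C04Rik, Cel, Cela2a, Ctrb1, Ctrl, Pnliprp1, Rnase1 and Zg16 turned negative and were not called, at -0.14, -0.0882, -0.12, -0.18, -0.0649, -0.26, -0.27 and -0.39. Correlation thresholds of 0.6 and 0.8 gave 53 and 31 tracking genes in place of 37. Over the 63 called genes named in the text, 846 of 1185 alternatives kept call and direction, 331 lost the call and 8 turned the direction; Krt77, Matn2, Mir376a and Mir539 were called under every alternative run, the covariate included, and Mir379 under every alternative but the covariate. Same-numbered replicates of the groups did not deviate together (correlations of -0.02, -0.02 and -0.10), so the numbers are not taken to pair samples; with the replicate block 219 genes were called. Dim probe sets, such as those of Mir376a and H2ac4, lie near the array's lowest values and their differences may be understated.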
